A study of Mus musculus with 6 samples.

Results

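The cells described here were capillary endothelial cells of the mouse lung that carried transcripts of Esm1. Esm1 (endothelial cell-specific molecule 1, also called endocan) encodes a secreted proteoglycan that is widely used to mark the leading cells of sprouting vessels. They were chosen by their own counts of unique molecular identifiers (UMIs, 1 per captured transcript), so Esm1 and the other genes of the rule are given as a description only. A barcode was kept with at least 500 detected genes and at most 15% of its UMIs from mitochondrial genes, which left 24640 of 28516 barcodes. It counted as endothelial with 2 or more UMIs of Cdh5, Pecam1 and Cldn5 together, no Ptprc or Epcam UMI, at most 2 platelet UMIs (Pf4 and Ppbp) and at most 1 UMI of the leukaemia markers Trap1a and Trnp1. Of the 16598 endothelial cells so defined, those with at least 2 Esm1 UMIs, no UMI of the aerocyte genes Ednrb and Fibin, and none of Slc6a2, Gja5 or Dkk2 were taken. This gave 392 Esm1-positive capillary cells, of which 281 came from Control and 111 from AML lungs. Capillary cells that met every other condition with no Esm1 UMI numbered 11162, and a further 335 had exactly 1 Esm1 UMI and entered neither class.

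The study placed 3 libraries of normal lung (Control) beside 3 libraries of lung infiltrated by acute myeloid leukaemia (AML) carrying a Trp53 R172H allele opposite a deleted Trp53 allele. Lungs were digested with Liberase and DNaseI, and non-haematopoietic niche cells were sorted. Into each AML library went 80% niche cells and 20% leukaemia cells sorted by their GFP. Libraries were made with the Chromium Single Cell 3' v3.1 chemistry, and the labels used here give neither strain, sex, age nor whether each library was a separate animal, so p-values measure only the spread between libraries.

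The 6 libraries held between 19060359 and 46018541 UMIs, and 1742 to 6086 kept cells each. The median depth of the Esm1-positive cells was 8288, 5243 and 4811 UMIs in the Control libraries and 3399, 3934.5 and 2541 in the AML libraries. The Esm1-negative cells had medians of 7350.5, 4587 and 4145 UMIs in Control and 3519, 4000 and 2764 in AML. Cells were therefore shallower in AML than in Control for both classes. In all, 89 barcodes occurred in more than 1 library, and 2 of them belonged to Esm1-positive cells. A doublet caller marked 1 of the Esm1-positive cells.

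General capillary cells of the lung line most of the alveolar capillary bed and serve as its progenitors, beside the large aerocytes that face the airspace. During sprouting, VEGF acting on VEGF receptors induces the Notch ligand Dll4 in tip cells, which restrains the neighbouring stalk cells through Notch receptors. Endothelial cells that move from capillaries towards arteries are known to pass through a state with strong Notch signalling and expression of Cxcr4, the receptor of the chemokine Cxcl12.

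Because Esm1 defines the cells, the stretch just upstream of its start is shown as context for the transcription factors measured below. Esm1 (ENSMUSG00000042379) lies at chr13:113209659-113218098 on the forward strand in mm10. The 250 bases before the gene, chr13:113209409-113209658, taken from the RefSeq promoter table for GRCm38.p6, read as follows, with matches to the core letters of ETS factor sites in capitals.
Esm1 upstream: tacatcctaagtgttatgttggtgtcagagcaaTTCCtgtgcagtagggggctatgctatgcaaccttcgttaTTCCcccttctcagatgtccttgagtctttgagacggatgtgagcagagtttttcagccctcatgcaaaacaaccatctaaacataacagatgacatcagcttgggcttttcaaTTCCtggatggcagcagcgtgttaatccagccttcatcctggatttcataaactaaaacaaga
The search for GGAA on both strands gave 3 matches, all as TTCC on the printed strand. Of 32851 windows of the same length and position, 93.4% held GGAA, with a median of 3 matches, so the count here is the usual one. TGGGAA, the core letters bound by the Notch effector RBPJ and a string that contains GGAA, had 0 matches, against 21.6% of windows that held it. These matches are a description of letters and say nothing of binding.

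Of the 3 other genes given as markers of these cells, Plvap and Efnb2 set them apart from Esm1-negative capillary cells, and Edn1 was at a higher level in every library without passing the test. Levels are given as CPM, the UMIs of a gene per 1000000 UMIs of the same cells, always in the order Control 1, 2, 3 and AML 1, 2, 3. Plvap, which forms the diaphragms of fenestrae and caveolae, stood at 2348, 2706, 2344, 2412, 891 and 1214 CPM in Esm1-positive cells. In Esm1-negative cells of the same libraries it stood at 1300, 1414, 1200, 1018, 452 and 552. The Esm1-positive value was the higher one in each library, although AML 2 and AML 3 lay below every Control library in both classes. Efnb2, the ephrin ligand of arterial endothelium and a Notch target, gave 1732, 1450, 1351, 1217, 586 and 827 against 773, 546, 600.2, 508, 369 and 387. Edn1, the vasoconstrictor endothelin 1, gave 537, 861, 966, 815, 795 and 889 against 471, 421, 575, 334, 108 and 469.5. The log2 difference of Edn1 was 1.02 with an adjusted p of 0.184 by edgeR's quasi-likelihood test, although limma voom gave 0.00511 and DESeq2 0.0137.

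The tip-cell name was borne out only in part. Of 19 tip-cell and sprouting genes tested by edgeR, 8 were higher and 4 lower in Esm1-positive cells, as described below. Cxcr4, Dll4, Angpt2, Unc5b and Flt4 were among the higher ones, and Ramp3, Col4a1 and Col4a2 among the lower ones. Unc5b, Col4a1 and Col4a2 did not pass by limma voom. Pdgfb, also a tip-cell marker, stood lower in Esm1-positive than in Esm1-negative cells of the Control libraries. Apln, which encodes the ligand apelin and is a classical tip-cell gene, stood at only 8.98, 8.81, 18.7, 5.36, 8.03 and 61.6 CPM. These levels rest on 1 to 11 UMIs per library. On average over libraries, 5.29% of Esm1-positive and 3.96% of Esm1-negative Control cells had an Apln UMI. In AML these means were 2.82% and 0.592%, so Apln was low but not rarer in Esm1-positive cells. Kcne3 was listed at 0 except for 1.47 in Control 2 and 8.03 in AML 2, Nid2 at 0 except for 1.47 in Control 2, and Pgf had no UMI in any library. Kcne3, Nid2 and Pgf were too low to be tested. The cells are therefore called Esm1-positive capillary cells here. Gpihbp1, the lipoprotein lipase anchor that marks general capillary cells, stood at 1174, 2201, 1659, 2256, 1950 and 2719, and in Esm1-negative cells at 1216, 1947, 1705, 1923, 1785 and 2327. The ranges of Gpihbp1 in the 2 classes overlapped, and every library of both classes held it at a high level.

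**Figure D1:**
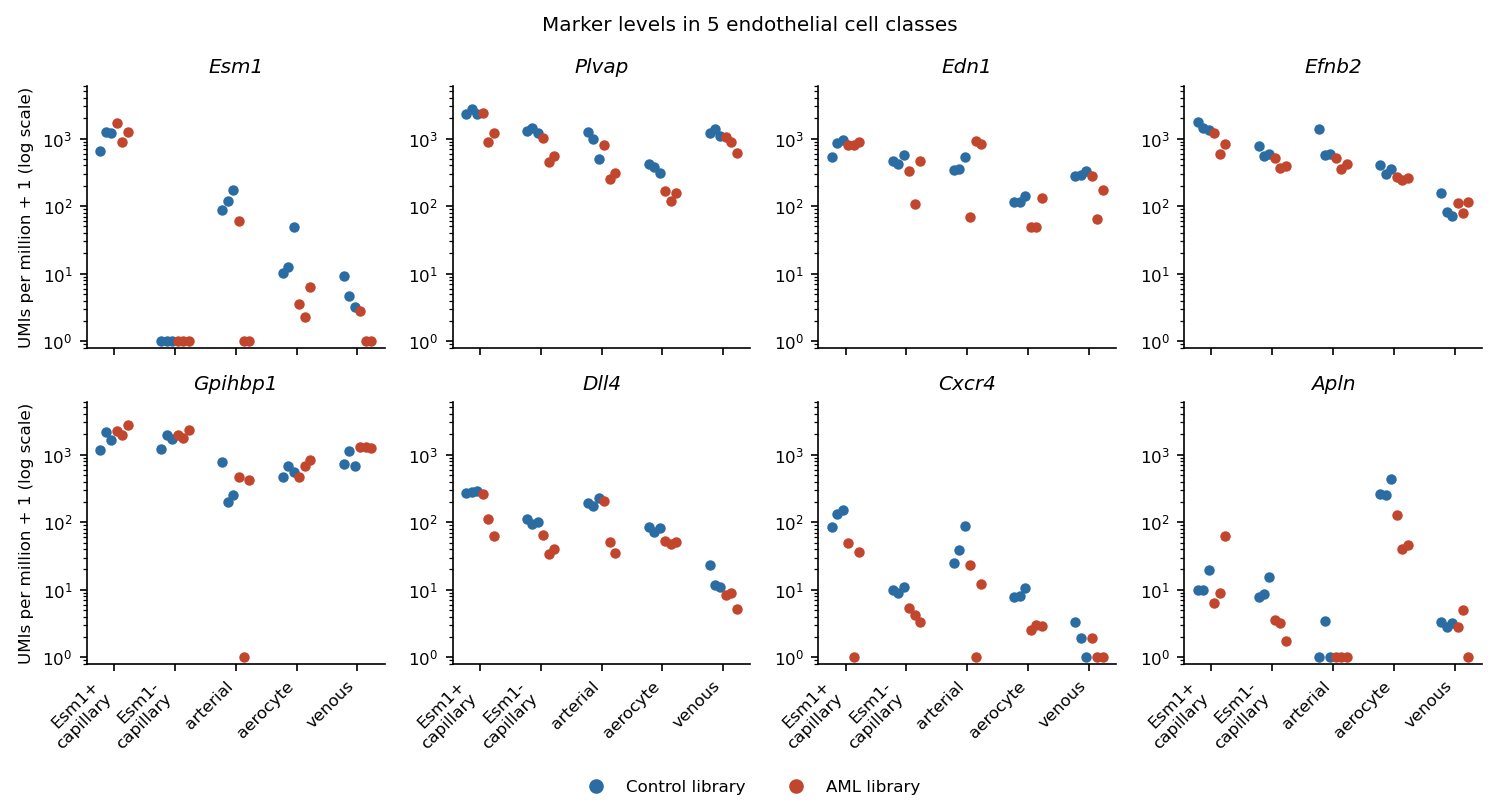
Levels of 8 genes in CPM plus 1 on a log axis, for 5 endothelial classes, with 1 point per library (Control blue, AML red). Plvap and Efnb2 sat higher in the Esm1-positive class than in the Esm1-negative class in all 6 libraries, and Apln was highest in aerocytes.

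The share of endothelial cells that met the rule was lower in all 3 AML libraries than in any Control library. It was 4.40% in Control 1 (95% exact binomial interval 3.36 to 5.65%), 3.74% in Control 2 (3.09 to 4.47%) and 4.0% in Control 3 (3.29 to 4.80%). It was 1.52% in AML 1 (1.13 to 2.01%), 1.14% in AML 2 (0.767 to 1.62%) and 0.890% in AML 3 (0.614 to 1.25%). The intervals cover counting error only. The means were 4.04% ± 0.333 (SD, n = 3) and 1.18% ± 0.319 (SD, n = 3), a difference of -2.86 percentage points, or 3.42-fold. The exact two-sided permutation test gave p = 0.1, the smallest p that 3 libraries against 3 allow. Esm1 was already known from earlier results of these data to be lower in AML general capillary cells. The share counts this same gene, so the share and its p are a description and no independent support.

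Esm1 is the gene of the rule and is read at lower depth in the AML cells, so the share was also taken after thinning each cell to 2000 UMIs. Here and below, cells under 2000 UMIs were left out of thinned values. The denominator went from 3706 to 2751 cells in AML 3 and from 3051 to 2781 in Control 2. The share was then 2.27% in Control and 0.808% in AML, a difference of -1.47 percentage points, again with no overlap between the groups. The ratio was 2.81-fold, against 3.42-fold with all UMIs. With at least 3 Esm1 UMIs the shares were 2.88% and 0.726%, and with at least 1 they were 7.25% and 2.33%. The denominator holds endothelial cells only, so the added leukaemia cells do not enter it, but digestion and sorting can set such shares and their part was not tested. Esm1-positive cells had a median of 4 Esm1 UMIs in Control and 3 in AML. Just inside the threshold lay 122 cells with exactly 2 Esm1 UMIs, and just outside it the 335 cells with 1. Cells with 10 or more Esm1 UMIs numbered 47 in Control (16.7%) and 9 in AML (8.11%), and the highest counts were 65 and 49.

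**Figure D2:**
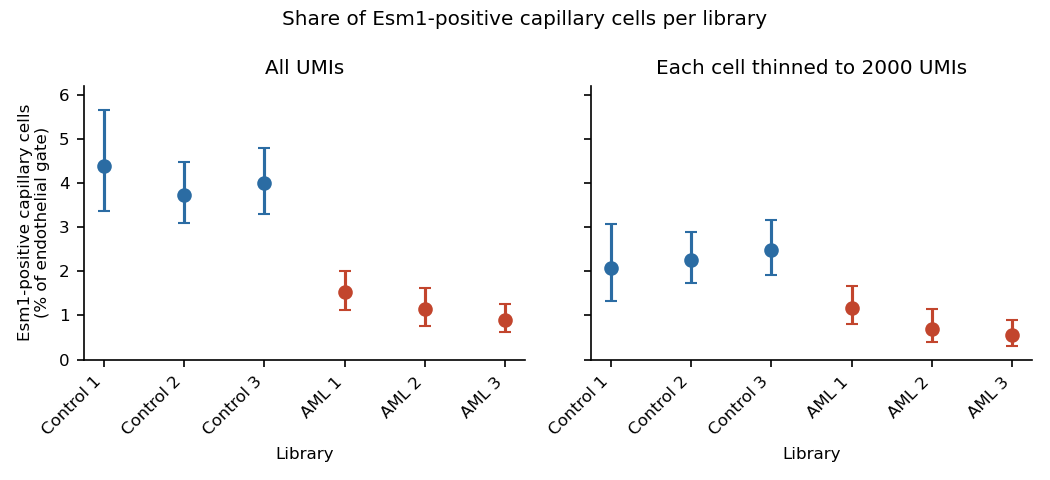
Esm1-positive capillary cells as a percent of endothelial cells in each library, with 95% exact binomial intervals as bars (Control blue, AML red), for all UMIs and after thinning to 2000 UMIs per cell. The 3 AML libraries lie between 0.890% and 1.52% and the 3 Control libraries between 3.74% and 4.40% with all UMIs.

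Esm1 was rare in venous cells, aerocytes and leukaemia cells of the same suspensions, but not in arterial cells. At least 2 Esm1 UMIs were found in 2 of 922 venous cells (0.217%, median 5184.5 UMIs) and in 25 of 2152 aerocytes (1.16%, median 6289.5 UMIs). Among leukaemia cells, whose median depth was 23604 UMIs, 0 of 2008 reached 2 Esm1 UMIs, where 3 cells would make 0.149% and the 95% exact binomial interval ends at 0.184%. These 3 classes served as background. With capillary cells alone as the denominator, the mean share of Esm1-positive cells was 6.26% in Control and 1.55% in AML. The shares of the 3 background classes, pooled over their libraries, lay below both values. In arterial cells, defined by 2 or more UMIs of Gja5 and Dkk2, 11 of 78 Control cells (14.1%) and 1 of 40 AML cells (2.5%) had 2 or more. The 95% exact binomial intervals, 7.26 to 23.8% and 0.0633 to 13.2%, overlapped, and the AML value rests on 1 cell. Split in the same way, aerocytes gave 22 of 1161 Control cells (1.89%) and 3 of 991 AML cells (0.303%). A lower share in AML was therefore not particular to capillary cells, although the arterial value rests on few cells. Both classes were also shallower in AML, with a median of 5126 UMIs against 7734 in Control for aerocytes and 5352 against 9271 for arterial cells.

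Capillary cells were also grouped by their number of Esm1 UMIs, as a description, because the steps depend on depth and on the gene of the rule. In the Control libraries the mean level of Slc45a4, a solute carrier, was 3.46 CPM in cells with 0 Esm1 UMIs, 19.8 with 1, 34.1 with 2, 104 with 3 to 5 and 197 with 6 or more. Cxcr4 went through 8.86, 26.5, 38.9, 77.4 and 226 over the same steps. Sema3c, a secreted semaphorin of general capillary cells, went the other way, through 1815, 787, 715, 406 and 198. Plvap went through 1305, 1927, 2232, 2484 and 2654, while Dll4, with 101, 218, 176, 309 and 325, dipped at 2 UMIs. Edn1 was at 489 with 0 UMIs and between 751 and 810 at every further step, and Gpihbp1 stayed between 1622 and 1817 with no trend. In the AML libraries the mean of Cxcr4 was 3.30, 2.80, 12.4, 25.7 and 49.5, and that of Slc45a4 3.67, 41.2, 26.1, 47.7 and 85.0, so that neither moved in 1 direction at every step. The last AML step rests on 29 cells, 4 of them in AML 2.

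**Figure D3:**
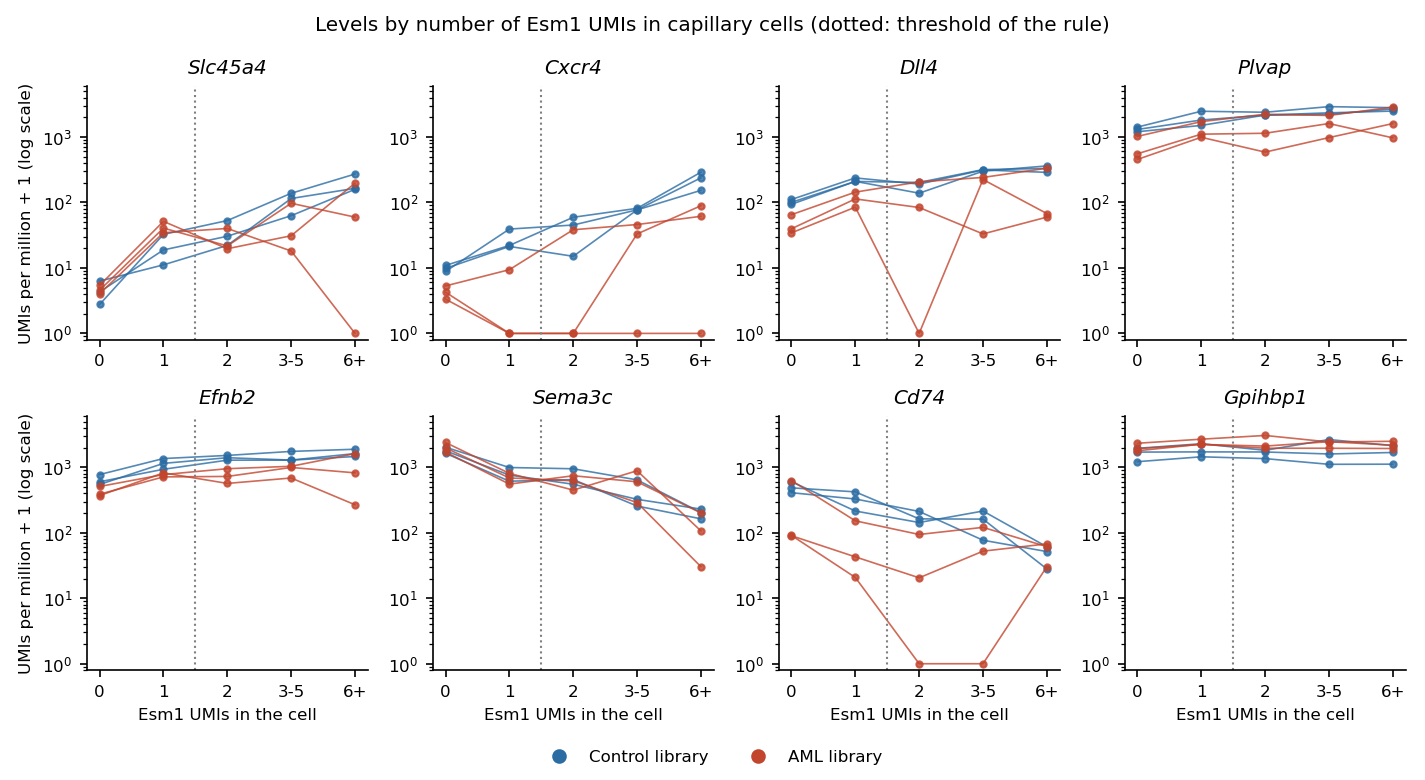
Level of 8 genes (CPM plus 1, log axis) in capillary cells grouped by their Esm1 UMIs, with 1 line per library (Control blue, AML red) and a dotted line at the threshold of the rule. The Control means of Slc45a4 and Cxcr4 are higher at each further step and that of Sema3c lower, while Gpihbp1 is nearly level.

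Within the same libraries, Esm1-positive cells differed from Esm1-negative capillary cells in genes of the Notch and VEGF pathways, of general capillary identity and of MHC class II presentation. UMIs were summed per library and class, and the 2 sums of a library were compared with the library as a block by edgeR's quasi-likelihood test with Benjamini-Hochberg adjustment over all genes. Of 10215 genes tested, 862 (8.44%) passed an adjusted p of 0.05, 397 (3.89%) higher and 465 (4.55%) lower in Esm1-positive cells. A difference of 1 sign in all 6 libraries, whatever its p, was found for 10.3% of the genes tested. The rule for named genes required 1 sign in every library, so for them that trait is no further result. The paired edgeR fit gave very small p-values, so limma voom was run beside it, and each gene named below that passed by edgeR alone is given as such. By limma voom 529 genes passed, and with a stricter endothelial gate 332 of 7626 tested passed in edgeR.

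The difference with the largest size among the higher genes was that of Slc45a4. It stood at 106, 89.6, 165, 85.8, 24.1 and 52.8 CPM in Esm1-positive cells and between 1.77 and 5.29 in Esm1-negative cells. The value was higher in Esm1-positive cells of each library, as the naming rule required. The log2 difference was 4.70 ± 0.23 (SE), 26.0-fold, with an adjusted p of 3.41e-06 by limma voom. After thinning to 2000 UMIs, 18.6% of Esm1-positive Control cells and 0.550% of Esm1-negative ones had a Slc45a4 UMI, against 30.1% and 1.11% unthinned.

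Cxcr4 stood at 84.4, 129, 153, 48.2, 0 and 35.2 CPM against 8.82, 7.83, 9.92, 4.31, 3.26 and 2.34. It was higher in Esm1-positive cells of 5 libraries and had no UMI in those of AML 2. The log2 difference was 3.66 ± 0.22 (SE), 12.7-fold, with an adjusted p of 8.80e-06 by limma voom. Thinned to 2000 UMIs, 17.0% of Esm1-positive and 1.80% of Esm1-negative Control cells had a Cxcr4 UMI, against 35.5% and 4.13% unthinned. Cxcr4 does not meet the rule for named genes because of AML 2 and is given as a member of the tip-cell list.

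Of the Notch pathway list, 14 of 16 members were tested, 5 were higher and 3 lower. The ligand Dll4 stood at 273, 275, 291, 263, 112 and 61.6 CPM against 109.9, 92.6, 99.4, 64.0, 33.3 and 38.6, higher in all 6 libraries (log2 difference 1.54, 2.92-fold, adjusted p 4.09e-06 by limma voom). The receptor Notch1 gave 745, 497, 541, 413, 393 and 475 against 395, 282, 281, 229.6, 246 and 247 (0.87, adjusted p 6.50e-06 by limma voom). The target gene Hey1, a transcriptional repressor, gave 287, 523, 463, 450.2, 48.2 and 158 against 228, 208, 184, 134, 24.3 and 60.6 (1.18, adjusted p 0.000374 by limma voom). Ligand, receptor and this target were thus higher in each library, and the lowest values of all 3 fell in the AML libraries. Efnb2 was also higher (1.16, 2.24-fold, adjusted p 1.45e-06 by limma voom). Nrarp, a feedback inhibitor of Notch, passed by edgeR (0.57, adjusted p 0.00348) but not by limma voom (0.254), and had 2 UMIs in the Esm1-positive sum of AML 1. Hes1, another Notch target, was lower by the same test, at 86.2, 109, 95.3, 107, 289 and 220.0 against 185, 263, 232, 204, 307 and 233 (-0.94, adjusted p 0.00236 by limma voom). The other lower members by edgeR were Lfng (-0.67), which modifies Notch receptors, and Dll1 (-0.53), and neither passed by limma voom (adjusted p 0.369 and 0.0598).

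Of the VEGF pathway list, 12 of 13 members were tested, 5 were higher and 3 lower. The receptors Flt4 (log2 difference 0.94), Flt1 (0.42) and Kdr (0.31), the co-receptor Nrp1 (0.26) and the ligand Vegfa (0.40) were higher. Of these, Kdr did not pass by limma voom (adjusted p 0.283). Vegfc, a ligand of Flt4 known for lymphatic growth, was nearly missing from Esm1-positive cells, at 0, 1.47, 0, 16.1, 16.1 and 0 CPM against 49.0, 59.8, 61.0, 132, 82.0 and 119.6. Vegfc was lower in Esm1-positive cells of each library, and the log2 difference was -4.64 ± 0.32 (SE), 25-fold, with an adjusted p of 8.43e-05 by limma voom. The receptor and its ligand therefore differed in opposite directions. Nr4a1 and Spry4, which respond to growth factor signalling, were lower by edgeR (-0.77 and -0.46) but did not pass by limma voom (adjusted p 0.151 and 0.254).

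The wider tip-cell and sprouting list had 19 of 23 members tested, 8 higher and 4 lower, with a median log2 difference of 0.38 against -0.02 over all genes. Angpt2, an antagonist ligand of the Tie2 receptor, was 2.34-fold higher (adjusted p 0.00756 by limma voom). Unc5b, a netrin receptor, passed in edgeR (log2 difference 1.04, adjusted p 0.00389) but not by limma voom (0.251), and it was lower in Esm1-positive cells of AML 1 (5.36 against 14.1) and AML 2 (8.03 against 16.6). Ramp3, a co-receptor for adrenomedullin, was the most reduced member, at 0 to 16.1 CPM against 21.5 to 86.0 (log2 difference -2.80). Col4a1 and Col4a2, the basement membrane collagens, were slightly lower by edgeR (-0.30 and -0.28) and did not pass by limma voom (adjusted p 0.107 and 0.0919). Of the list, 6 members passed by limma voom against 12 by edgeR.

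Arterial genes split evenly. Of 14 tested, 5 were higher (Bmx, Hey1, Efnb2, Unc5b and Sema3g) and 5 lower (Vegfc, Fbln2, Mgp, Sox17 and Gja4). Bmx, a tyrosine kinase of arterial endothelium, stood at 30.5, 23.5, 27.2, 53.6, 8.03 and 8.80 CPM against 6.18, 5.85, 9.38, 6.87, 9.66 and 8.0, so that AML 2 went the other way and AML 3 hardly differed (log2 difference 1.88, adjusted p 0.00459 by limma voom). Sox17, a transcription factor needed for arterial identity, gave 93.3, 89.6, 105, 96.5, 72.2 and 141 against 231, 241, 227, 302, 234 and 299, lower in all 6 libraries (-1.33, adjusted p 3.84e-05 by limma voom). Gja4, the arterial connexin 37, was also lower (-0.81). Gja1, which encodes connexin 43, stood at 34.1, 69.0, 136, 96.5, 16.1 and 26.4 against 7.41, 9.27, 8.84, 5.82, 4.89 and 6.03, higher in each library (3.15, 8.88-fold, adjusted p 1.74e-05 by limma voom). Nr2f2, the venous fate factor COUP-TFII, was lower (0 to 23.8 against 21.0 to 47.2, log2 difference -1.85, adjusted p 0.00170 by limma voom).

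Of 17 vascular transcription factors tested, 5 were higher and 6 lower. Meox1 (log2 difference 2.12, adjusted p 0.00128 by limma voom) and Mecom (2.10, adjusted p 1.92e-05) led the higher ones. Mecom, which encodes the factor EVI1, stood at 43.1, 36.7, 39.1, 42.9, 104 and 44.0 CPM against 9.35, 9.16, 9.52, 10.9, 16.1 and 15.1, higher in each library. Sox4 (0.84) and Sox18 (0.46) were higher too. Among the ETS factors, whose core letters are marked in the Esm1 upstream sequence, Erg was slightly higher (0.31, adjusted p 0.0182 by edgeR and 0.109 by limma voom). Fli1 was lower (126, 89.6, 80.0, 91.1, 96.3 and 141 against 228, 175, 207, 136, 197 and 181, log2 difference -0.95), and so was Ets1 (-0.55). Of the 15 BMP and TGF-beta genes tested, Smad6, an inhibitor of BMP signalling, Ltbp4, Eng and Id3 were higher (0.88, 1.08, 0.55 and 0.37) and Tgfbr2 lower (-0.52), the last not by limma voom (adjusted p 0.233).

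Secreted factors and guidance molecules were among the named genes. Slit3, a ligand of Robo receptors, stood at 43.1, 29.4, 40.8, 21.4, 8.03 and 17.6 CPM against 8.82, 4.30, 7.34, 1.75, 2.56 and 3.81 (log2 difference 2.53, adjusted p 1.92e-05 by limma voom). Flrt2, a guidance receptor that binds Unc5 proteins, was 5.46-fold higher. Kitl, the ligand of the receptor Kit, gave 840.1, 790.4, 891, 922, 819 and 493 against 406, 413, 400.2, 413, 458 and 268, higher in all 6 (1.01, adjusted p 1.69e-06 by limma voom). Kit itself was lower (472, 419, 519, 322, 185 and 343 against 679, 606, 599, 474, 251 and 279.9, log2 difference -0.38, adjusted p 0.0184 by limma voom), except in AML 3. Osmr, the oncostatin M receptor, was 3.12-fold higher. The other higher named genes with a known product were Olfm2 (3.2), Galnt15 (3.02), the transporters Slc10a6 (2.89) and Abcc4 (2.65), Ivns1abp (2.56), Atp13a3 (2.30) and the guanine deaminase Gda (2.28).

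Genes of general capillary identity other than Plvap were mostly lower. Of 8 tested, 6 were lower and 1, Plvap, was higher. Sema3c stood at 579.8, 354, 323, 482, 610.0 and 352 CPM against 2025, 1785, 1635, 2390, 1704 and 1976, lower in every library (log2 difference -2.13 ± 0.07 (SE), 4.37-fold, adjusted p 1.53e-07 by limma voom). Glp1r, the receptor of glucagon-like peptide 1, was lower (-1.03), as were Aplnr, the apelin receptor (-0.66), Cd93 (-0.42) and Clec1a (-0.24). Of 6 aerocyte genes tested, Prx (-1.89), Car4 (-0.90) and Pmp22 (-0.76) were lower and Cyp4b1 (0.61) was higher. Lpl, which encodes lipoprotein lipase, and Cd300lg were higher (0.65 and 1.56), while the fatty acid binding protein gene Fabp5 was lower (-2.36).

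All 7 genes of MHC class II presentation tested were lower, with a median log2 difference of -1.74. Cd74 (the class II invariant chain) gave 102, 132, 111, 91.1, 40.1 and 8.80 CPM against 408, 602, 484, 627, 89.2 and 90.2, lower in all 6 libraries (-2.16, 4.48-fold, adjusted p 2.33e-06 by limma voom). H2-Aa, a class II chain, gave 101, 95.5, 76.6, 75, 0 and 0 against 238, 323, 277, 366, 50.1 and 86.0 (-1.74). H2-DMb1 (-2.30), H2-Eb1 (-1.98), H2-DMa (-1.61), H2-Ab1 (-1.26) and the class II transactivator Ciita (-1.08) were also lower, Ciita by edgeR alone (adjusted p 0.522 by limma voom). Of 18 class I presentation genes, 4 were lower and 1 was higher, with log2 differences between -0.49 and 0.34, and 3 of these 5 passed by limma voom. Of 22 type I interferon genes tested, 5 had an unadjusted p under 0.05 by edgeR, and 0 passed by edgeR, limma voom or DESeq2.

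RNA of other cell types was also mostly lower in Esm1-positive cells, with exceptions given here, and its part in these differences was not tested. The summed level of 7 epithelial markers ranged from 149.8 to 532.5 CPM in Esm1-positive and from 545.8 to 5340 in Esm1-negative sums. The 5 erythroid and platelet markers ranged from 0 to 66.4 against 14.5 to 3432, but in AML 1 stood at 16.1 against 14.7. The haemoglobin gene Hba-a2 was among the named lower genes (-6.00, adjusted p 0.183 by limma voom). The 8 mesenchymal markers ranged from 7.18 to 64.2 against 23.4 to 174, and in AML 2 stood at 64.2 against 61.7. The 3 mesothelial markers, at 0 to 5.36 against 0.116 to 1.22, were higher in Control 1, Control 2 and AML 1. Myeloid markers ranged from 17.6 to 61.0 against 33.2 to 405, and all 5 lymphoid markers had no UMI in Esm1-positive cells. The named lower genes Sftpd, Inmt and Hba-a1 are known from epithelium, mesenchyme or red cells. Mgp, also a named lower gene, is known from mesenchyme but stood high in arterial endothelial cells of these libraries, as given below. Of 10 proliferation genes tested, 3 were lower by edgeR and 1 of them by limma voom, and Mki67 and Top2a had 2 UMIs each over all Esm1-positive cells. Among the genes described above, some calls against Esm1-negative cells were lost when 1 library was left out. Those of Nrarp and Clec1a were lost without Control 2, those of Unc5b and Top2a without Control 3, that of Col4a1 without Control 1 and that of Spry4 without AML 3. Those of Nrp1, Nr4a1 and Lfng were lost without Control 2 or Control 3, those of Ciita and Col4a2 without Control 1 or Control 2, and that of Tgfbr2 without Control 1, Control 2 or Control 3. That of Kdr was lost without Control 2, AML 1 or AML 3, and that of Erg without Control 2, Control 3 or AML 1.

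**Figure D4:**
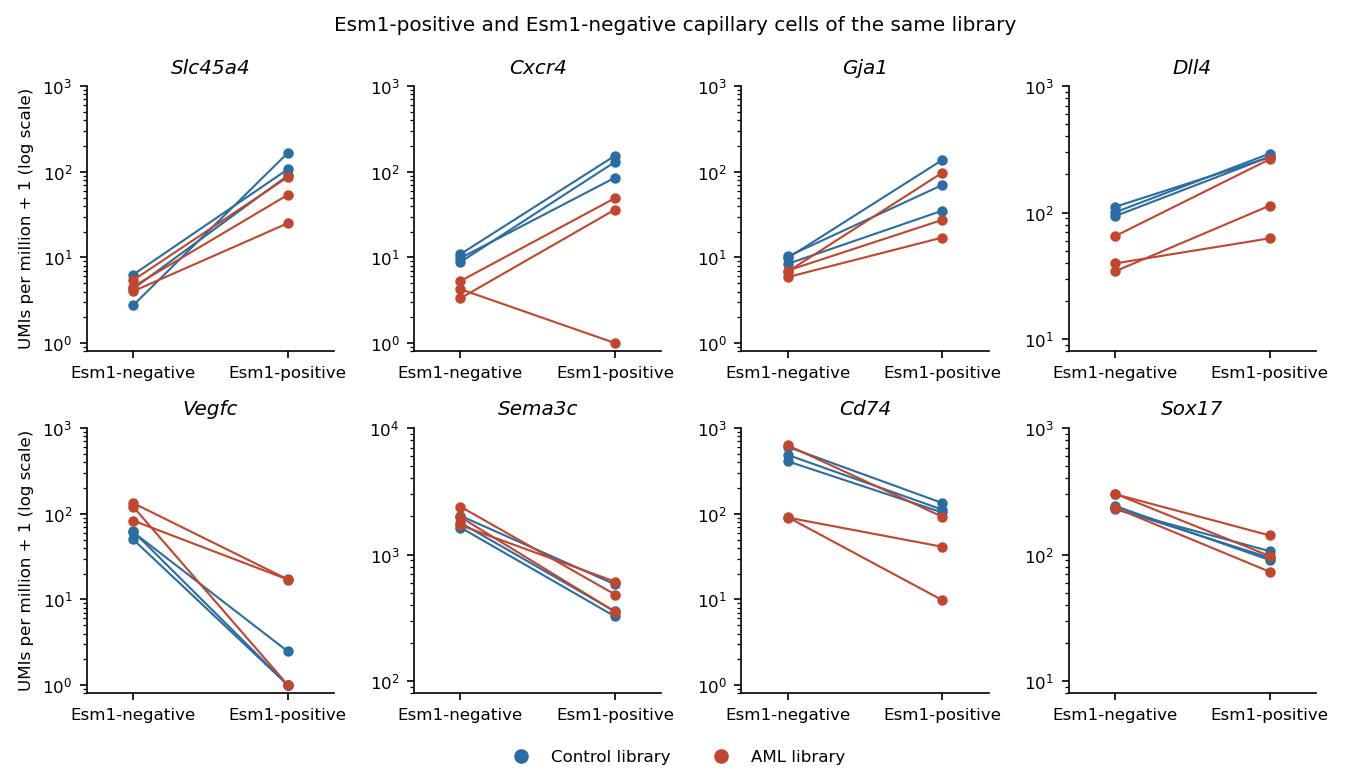
Levels of 8 genes (CPM plus 1, log axis) in Esm1-negative and Esm1-positive capillary cells, with a line joining the 2 classes of each library (Control blue, AML red). Slc45a4, Gja1 and Dll4 are higher in Esm1-positive cells of all 6 libraries, Cxcr4 in 5 of 6, and Vegfc, Sema3c, Cd74 and Sox17 are lower in all 6.

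Arterial cells share Efnb2 with the Esm1-positive cells and were compared with them in the 5 libraries that had at least 10 cells of both classes, AML 2 being dropped for its 4 arterial cells. Of 3790 genes tested by edgeR's quasi-likelihood test with the library as a block, 1047 (27.6%) passed, 518 (13.7%) higher and 529 (14%) lower in Esm1-positive cells. General capillary genes were higher in Esm1-positive cells for 6 of 7 tested. Kit (log2 difference 2.54), Glp1r (2.17), Plvap (1.48), Clec1a (1.32) and Cd93 (1.01) were among them, and Gpihbp1 (2.19) was lost when either AML 1 or AML 3 was left out. Spry1, a feedback inhibitor of receptor tyrosine kinases, stood at 129, 169, 153, 177, 209 and 167 CPM in Esm1-positive and 4.74, 7.19, 17.2, 7.49, 0 and 0 in arterial cells, higher in every library compared (4.07, adjusted p 8.77e-10 by edgeR).

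Efnb2 (log2 difference 0.88, adjusted p 7.01e-05 by edgeR), Hey1 (1.43), Cxcr4 (1.24) and the VEGF receptors Flt4 (1.51), Kdr (1.31) and Flt1 (0.68) were also higher in Esm1-positive than in arterial cells. Edn1 was not called (0.95, adjusted p 0.126 by edgeR). The lower genes included matrix and large-vessel genes at levels close to 0 in Esm1-positive cells. Mgp, the matrix Gla protein, stood at 5.39, 10.3, 25.5, 0, 136 and 0 CPM against 3194, 10881, 11434, 9264, 12956 and 14116 in arterial cells. Cytl1, a secreted cytokine-like protein, had 1.70 in Control 3 and 0 in the other libraries, against 426 to 2638 in arterial cells. Vcam1, a leukocyte adhesion molecule, ranged from 0 to 3.40 against 195 to 457. Enpp6, Sfrp1 and Selp had 0 UMIs in all Esm1-positive cells and, against a floor of 3 UMIs over the class in the 5 libraries compared, were at least 174-fold, 136-fold and 65.5-fold lower.

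Bmx, Ltbp4 and Mecom, higher in Esm1-positive than in Esm1-negative capillary cells, were lower in them than in arterial cells (log2 difference -3.27, -3.19 and -2.42). Bmx had a mean of 7.66 CPM in Esm1-negative, 25.3 in Esm1-positive and 230.0 in arterial cells over the 6 libraries. For these 3 genes the Esm1-positive level thus lay between the other classes. Kitl, Hey1, Efnb2, Plvap, Flt4 and Cxcr4 were higher in Esm1-positive cells than in both other classes. Gja4 was lower than in both, although its call against arterial cells (-2.31, adjusted p 0.0183 by edgeR) was lost without Control 2, AML 1 or AML 3.

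Between the groups, Esm1-positive cells of AML lungs had higher Ly6c1, Ly6a and cold-inducible RNA-binding proteins and lower Mndal, Stab1 and Hspa1a than those of Control lungs. Of 5350 genes tested by edgeR's quasi-likelihood test on the 3 sums a group, 86 (1.61%) passed, 35 (0.654%) higher and 51 (0.953%) lower in AML. The number depends on single libraries. It was 168 of 6954 tested when AML 1 was left out and 30 of 6994 when AML 2 was. It was 14 of 7004 when AML 3 was left out and 19 of 3695 when Control 1 was. Of the 30 genes named by rule, 7 passed in all 6 fits that left out a library, and these lead the account. The naming rule required that the groups not overlap, so the lack of overlap in these 30 genes is no further result.

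Ly6c1, a surface antigen of lung capillary endothelium, measured 1091, 1877 and 902 CPM over the Control libraries and 4186, 8564 and 6186 in AML. The log2 difference was 2.30 ± 0.32 (SE), 4.93-fold, with an adjusted p of 1.67e-05 by edgeR. Of 3 Ly6 surface antigens tested, 2 passed. Ly6a, which encodes Sca-1, was the other one (2380, 3696 and 2426 against 6673, 9599 and 7365, log2 difference 1.48, adjusted p 0.00205 by edgeR). The groups did not overlap for either gene, as was the case for 19.8% of all genes tested, whatever their p.

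Ldha, the lactate dehydrogenase subunit of glycolysis, measured 52.1, 54.4 and 68.0 CPM over the Control libraries and 204, 152 and 194 in AML (log2 difference 1.67, 3.17-fold, adjusted p 0.000508 by edgeR). Ucp2, a mitochondrial carrier, gave 592, 858 and 384 against 1463, 2295 and 1997 (1.66, adjusted p 0.000630 by edgeR). Fxyd5, a regulator of the sodium pump, gave 162, 159 and 174 against 397, 554 and 458 (1.51, adjusted p 0.000508 by edgeR). That every AML library lay above every Control library in these 3 genes was a condition of the naming rule. Cirbp and Rbm3, RNA-binding proteins known to be induced by mild cold, were both higher (1.84 and 1.70). Cirbp stood at 43.1, 57.3 and 39.1 against 102, 233 and 185, and Rbm3 lost its call without Control 1.

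Mndal, an interferon-inducible nuclear protein of the Ifi200 family, measured 162, 131 and 117 CPM over the Control libraries and 42.9, 16.1 and 17.6 in AML (log2 difference -2.27, adjusted p 0.000508 by edgeR and 0.0794 by limma voom). Stab1, a scavenger receptor, gave 133, 99.9 and 122 against 37.5, 16.1 and 35.2 (-1.94, adjusted p 0.00317 by edgeR and 0.117 by limma voom). That Mndal and Stab1 were lower in all 3 AML libraries was likewise a condition of the naming rule. Of 14 type I interferon genes tested, 2 (Ifit1 and Isg15) were lower and none higher, with a median log2 difference of -0.97 against 0.02 over all genes. Of 9 genes induced by interferon gamma, Gbp4 and Gbp2 were lower and none higher, with a median of -1.20. All 4 of these calls were lost without AML 2 and also without AML 3. By limma voom and by DESeq2 0 of the 14 type I interferon genes passed. Of 4 MHC class II genes tested, 3 had an unadjusted p under 0.05 and 0 passed by edgeR, while 1 passed by limma voom and 0 by DESeq2, with a median of -1.19.

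Heat shock genes were lower in AML for 3 of 11 tested. Hspa1a measured 77.2, 57.3 and 62.9 CPM over the Control libraries and 5.36, 16.1 and 0 in AML (log2 difference -3.15, adjusted p 0.00283 by edgeR), and lost its call without Control 1 or AML 3. Hspa1b (-2.86) and Dnaja1 (-1.34) were lower as well. Such genes respond to cell handling, and the summed level of the 12 heat shock genes was 5062 to 6365 in Control and 3282 to 3828 in AML. Gm42418, a locus that overlaps ribosomal RNA, ranged from 48206 to 59878 in Control and from 21548 to 24365 in AML. Their part in the other differences was not tested.

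Of the genes that set Esm1-positive cells apart, Cxcr4 was lower in AML (122 ± 34.9 against 27.8 ± 25 CPM, SD, n = 3, log2 difference -2.01, adjusted p 0.0121 by edgeR and 0.117 by limma voom). Its call was lost without AML 2 or AML 3. Cxcr4 also stood lower in AML in Esm1-negative cells, at 8.82, 7.83 and 9.92 CPM in Control against 4.31, 3.26 and 2.34. Of the Esm1-positive cells, 103 of 281 in Control and 29 of 111 in AML had 6 or more Esm1 UMIs. The part of this unlike Esm1 level was not tested. Cxcl12, the ligand of Cxcr4, was lower in Esm1-positive cells of AML lungs (-1.19, adjusted p 0.0212 by edgeR), as were Vegfa (-1.16) and Smad6 (-1.10), each lost when Control 1, AML 2 or AML 3 was left out. Of 13 Notch pathway genes tested, 4 had an unadjusted p under 0.05 and 0 passed by edgeR, limma voom or DESeq2. Plvap (-0.70, adjusted p 0.260 by edgeR), Efnb2 (-0.77, adjusted p 0.174) and Edn1 (0.08, adjusted p 0.932) did not pass. For Plvap, Dll4 and Hey1 the library AML 1 lay among or near the Control libraries, with 2412, 263 and 450.2 CPM, while AML 2 and AML 3 lay far below them. Cd34, a sialomucin of endothelium, was higher (133, 95.5 and 155 against 241, 417 and 361, log2 difference 1.41, adjusted p 0.00205 by edgeR), and was lost without AML 3.

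**Figure D5:**
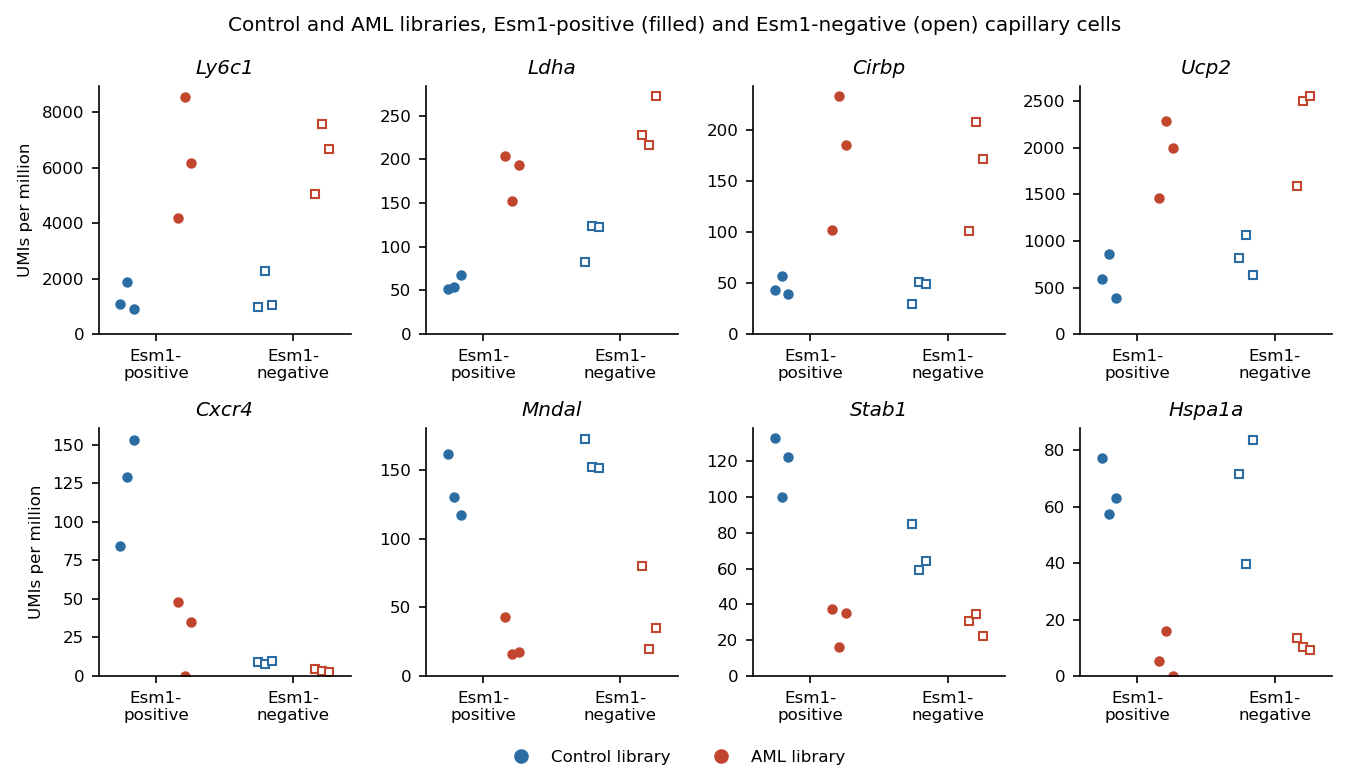
Levels of 8 genes in CPM in Esm1-positive (filled circles) and Esm1-negative (open squares) capillary cells, with 1 point per library (Control blue, AML red). In Esm1-positive cells Ly6c1, Ldha, Cirbp and Ucp2 are higher in all 3 AML libraries than in any Control library, and Cxcr4, Mndal, Stab1 and Hspa1a are lower.

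The same contrast in Esm1-negative cells of the same libraries is set beside these values. There 86 of 11793 genes passed by edgeR (0.729%), a number that ran from 0 to 788 when libraries were left out. Ly6c1 differed by 2.19, Cirbp by 1.92, Fxyd5 by 1.66 and Hspa1a by -2.51 on the log2 scale. The 23 type I interferon genes tested there had a median of -1.02, with 2 called lower and none higher. The 16 genes induced by interferon gamma had a median of -1.81, with 1 called lower and none higher. The lower interferon medians in AML were thus not particular to Esm1-positive cells. Whether the AML difference itself depends on the class was tested as an interaction. Of 10914 genes, 30 (0.275%) passed by edgeR, 13 with a larger and 17 with a smaller log2 difference in Esm1-positive cells. Sparcl1, a matricellular protein, measured 718, 740.4 and 783 CPM over the Control libraries and 1190, 369 and 1346 in AML Esm1-positive cells, and at 274, 289 and 216 against 574, 305 and 915 in Esm1-negative cells. Its interaction was -0.92 (adjusted p 6.65e-09 by edgeR and 0.185 by limma voom). Timp3, an inhibitor of metalloproteinases, also had an interaction of -0.92 (adjusted p 5.37e-10 by edgeR and 0.134 by limma voom). By DESeq2 1 gene passed and by limma voom 5, so the number of calls rests on the tool.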

How the data were processed

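Gene by cell UMI counts were deposited by the authors as filtered Cell Ranger matrices, 1 per library, with reads aligned to mm10 per the submitters' processing notes. These notes name Cell Ranger 7.0.0 and the file headers 6.0.1, so the version is open. Here the counts were read without change, and cells were filtered and classed by the thresholds given at the start. The members and gene lists were chosen with earlier results of these data known. Doublets were scored with Scrublet in scanpy 1.11.5, taking the top 0.8% per 1000 cells, and kept in the main fits. UMIs were summed per library and class (at least 10 cells) and tested with edgeR 4.0.16 (TMM, filterByExpr, robust quasi-likelihood) in R 4.3.3, with limma voom 3.58.1 and DESeq2 1.42.0 as alternatives and scipy 1.17.1 for exact tests. The code was tested on simulated data. Voom was chosen after the files were seen. Levels are CPM over the UMIs of the same cells, without TMM. Floors and intervals cover counting error only.

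Genes named in each comparison passed an adjusted p of 0.05, were not counted by the rule, reached a mean of 20 CPM in the higher class and had 1 direction in every library, or no overlap between groups. Of these, the 15 with the largest positive and the 15 with the largest negative log2 difference were taken, beside the members of the gene lists that passed and the 4 given markers. Cells of a library share its preparation, so libraries and not cells are the replicates. Libraries of a group differed by more than sampling noise. Other parts of the libraries were not analysed here.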

Additional observations from a re-analysis of the deposited data

Results flagged for a closer look

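The AML difference was itself different between Esm1-positive and Esm1-negative cells, by edgeR's interaction test, for the 22 genes named here, given as the log2 difference in Esm1-positive cells minus that in Esm1-negative cells. The values were larger in Esm1-positive cells for Lgals1 (3.43), Mgst1 (2.63), Bmp4 (2.28), Ccn2 (1.41), Pdgfb (1.3), Ptgs1 (1.27) and Cyp26b1 (0.82). They were smaller for Spp1 (-4.15), Tspan2 (-1.19), Zc3h15 (-1.14), Galnt1 (-0.94), Timp3 (-0.92), Sparcl1 (-0.92), Ppp2r5a (-0.87), Ctnnb1 (-0.81), Rhoc (-0.66), Ddx3x (-0.65), Gm42418 (-0.61), Sparc (-0.53), Ybx1 (-0.52), AY036118 (-0.49) and Calcrl (-0.41). The largest values rest on few UMIs: each Esm1-positive sum held 1 to 5 UMIs of Lgals1, 2 to 6 of Mgst1, 4 to 16 of Bmp4 and 0 to 7 of Spp1, and Tspan2 had 6 to 9 in the AML sums. Over all genes the median interaction was -0.11 with TMM scaling and -0.02 with the DESeq2 size factors, so small negative values are to be read against that shift. Timp3 and Sparcl1 were the only 2 of these genes that passed without each library in turn, and by limma voom 0 of the 22 passed.

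For Bmp4, a BMP ligand, the Esm1-positive cells measured 19.7, 23.5 and 11.9 CPM over the Control libraries and 48.2, 96.3 and 35.2 in AML. The Esm1-negative cells stood at 20.8, 19.1 and 23 against 13.7, 14.0 and 9.72. For Pdgfb, a ligand that recruits pericytes, the Esm1-positive cells stood at 156, 131 and 133 against 118, 161 and 194, and the Esm1-negative cells at 208 to 327 against 64.9 to 136. Bmp4 lost its call without Control 3 or AML 2, and Pdgfb without AML 2. Ccn2 passed by DESeq2 as well (adjusted p 0.0140).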

How the results depend on the processing

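The lower share of Esm1-positive cells in AML kept its direction, and the groups did not overlap, under every alternative run, with differences from -4.92 to -1.47 percentage points. All these alternatives count Esm1, the gene of the rule, so they are no independent support. The count of genes that passed moved more, but the number tested moved too, so a changed count is not by itself a changed share. For Esm1-positive against Esm1-negative cells 862 of 10215 genes tested became 443 of 5211 with cells matched on UMIs and 332 of 7626 with the stricter gate. The count became 517 by DESeq2, 529 by limma voom and 137 with no replicate block, and ran from 607 to 903 with 1 library left out. Against arterial cells 1047 of 3790 became 1630 of 14924 with no low-count filter and 653 with no replicate block, with a range from 730 to 1176. For AML against Control in Esm1-positive cells 86 of 5350 became 132 of 14010 with no low-count filter and 39 of 1504 with the stricter gate. The count became 28 of 4620 with at least 3 Esm1 UMIs, 51 of 2817 with equal cells per library and 45 by limma voom. With 1 library left out it ran from 14 to 168. In Esm1-negative cells 86 of 11793 became 680 by DESeq2, 39 by limma voom and 545 of 19800 with no low-count filter. With the stricter gate the count was 136 of 10377, and with 1 library left out it ran from 0 to 788. The 0 was reached by edgeR without AML 3, where 1497 genes had an unadjusted p under 0.05. The interaction count of 30 of 10914 became 1 by DESeq2, 5 by limma voom and 3 of 6187 with cells matched on UMIs. It was 0 by edgeR with no replicate block, where 355 genes had an unadjusted p under 0.05. With 1 library left out it ran from 8 to 32. The causes were not tested.

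Replicate numbers did not pair the samples: same-numbered deviations correlated at 0.02, 0.01 and -0.01 in Esm1-positive cells. With the replicate block the AML counts were 100 in Esm1-positive and 268 in Esm1-negative cells.

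In AML against Control, the log2 difference of Edn1 in Esm1-positive cells turned from 0.08 to -0.021 with no low-count filter, -0.19 with the stricter gate and -0.27 with at least 1 Esm1 UMI, and ran from -0.16 to 0.25 with 1 library left out, below 0 only without Control 1. In Esm1-positive against Esm1-negative cells, Klf6 turned from 0.31 to -0.051 with the stricter gate. Depth limits the AML side most: the Esm1-positive sums held 113651 to 186582 UMIs there, and 557081 to 680698 in Control.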

Other observations

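Esm1 was not confined to endothelium in these suspensions. Among epithelial cells (2 or more Epcam UMIs and no endothelial UMI), 86 of 1045 cells (8.23%) had at least 2 Esm1 UMIs. Nearly all of them carried Foxj1, the transcription factor of ciliated cells. With 2 or more Foxj1 UMIs, 85 of 140 cells (60.7%, 95% exact binomial interval 52.1 to 68.9%, median 12974 UMIs) had 2 or more Esm1 UMIs, and with no Foxj1 UMI 1 of 901 cells (0.111%, median 14955 UMIs) did. The share among Foxj1-positive cells was 36 of 58 in Control (62.1%) and 49 of 82 in AML (59.8%), beside the 4.04% and 1.18% of endothelial cells that met the rule for Esm1-positive capillary cells. The Foxj1 split was made after the values were seen.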
